A study of Mus musculus with 10 samples.

Results

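A list of 39 genes of skeletal muscle was followed across 10 RNA sequencing libraries of mouse tumours, and 36 of the 39 matched a row of the table by Ensembl ID, out of 18047 genes in all. The list was set by gene symbol and covers fast and slow fibre proteins, the sarcomere, calcium handling, energy metabolism and myogenic regulators. Myh3, Myh8 and Pax7 were not analysed here. The tumours grew for 3 weeks in BALB/c mice from 4T1, a mammary carcinoma line, and were cut as frozen tissue before total RNA was taken. In 5 libraries (KO1 to KO5) the implanted cells were Trop2 knockout cells, and in 5 (WT1 to WT5) they were wild-type 4T1 cells. The label Trop2 KO refers to the implanted tumour cells, so the host tissue around a tumour is not described as edited in either group. The labels do not say how many clones the knockout line comes from, and no label links a library to an animal. The p-values below therefore reflect how far these libraries differ among themselves, which may be technical. All 10 carry batch label 1.

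Some library names carry the word RESUB at their start, without an explanation in the labels (KO5, WT1, WT2, WT3 and WT4), and WT2 and WT5 share the number 170. The libraries held between 8609756 and 19934428 reads. Normalized counts are reads divided by a size factor for each library. The keratinocyte gene Krt1 was at 44.6, 1152 and 343 in WT2, WT3 and WT5 and at 0 in the other 7 libraries, so these 3 WT libraries stand apart for this gene.

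A skeletal muscle fibre shortens when myosin heads of the thick filament pull on actin of the thin filament, and troponin on the thin filament switches this on when calcium leaves the sarcoplasmic reticulum. Fast and slow fibres build the same machine from different genes: each of the myosin heavy chains, the 3 troponin subunits, the myosin light chains and myosin-binding protein C has a fast and a slow form. In bulk RNA, fewer muscle fibres and less RNA per fibre cannot be told apart.

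The bases before the start site of 5 members are shown first. These are the most abundant sarcomere and metabolic genes with an entry (Ttn, Acta1, Ckm, Eno3) and the dominant myosin of the libraries (Myh4). Each run is the 250 bases before the RefSeq start in GRCm38.p6, written from 5′ to 3′ on the strand of the gene, and 28 of the 36 members had an entry in that table. Capitals mark matches on either strand to the E-box CAGCTG (the core bound by myogenic helix-loop-helix factors), the MEF2 box, the CArG box bound by serum response factor, and the TATAAA box of core promoters. The run of Acta1 lies at chr8:123894776-123895025, minus strand, Myh4 at chr11:67237562-67237811, plus strand, Ttn at chr2:76982548-76982797, minus strand, Ckm at chr7:19410844-19411093, plus strand and Eno3 at chr11:70656926-70657175, plus strand.
Acta1: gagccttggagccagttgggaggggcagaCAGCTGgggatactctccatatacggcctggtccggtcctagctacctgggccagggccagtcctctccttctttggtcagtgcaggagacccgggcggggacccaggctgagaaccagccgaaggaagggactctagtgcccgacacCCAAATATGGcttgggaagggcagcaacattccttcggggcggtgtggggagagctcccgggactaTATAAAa
Myh4: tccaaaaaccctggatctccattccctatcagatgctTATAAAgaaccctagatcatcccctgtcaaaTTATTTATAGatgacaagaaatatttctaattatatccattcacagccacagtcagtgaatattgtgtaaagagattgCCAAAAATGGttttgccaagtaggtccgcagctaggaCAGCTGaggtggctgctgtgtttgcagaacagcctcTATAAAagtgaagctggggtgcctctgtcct
Ttn: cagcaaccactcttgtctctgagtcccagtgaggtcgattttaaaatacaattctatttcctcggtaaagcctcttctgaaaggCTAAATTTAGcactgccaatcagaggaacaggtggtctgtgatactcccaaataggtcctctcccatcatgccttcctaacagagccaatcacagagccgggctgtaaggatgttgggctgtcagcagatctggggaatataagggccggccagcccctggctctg
Ckm: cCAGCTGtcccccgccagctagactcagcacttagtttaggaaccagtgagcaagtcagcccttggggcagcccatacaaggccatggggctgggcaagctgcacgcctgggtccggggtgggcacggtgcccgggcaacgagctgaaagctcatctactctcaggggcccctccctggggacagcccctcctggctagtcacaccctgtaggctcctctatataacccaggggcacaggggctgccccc
Eno3: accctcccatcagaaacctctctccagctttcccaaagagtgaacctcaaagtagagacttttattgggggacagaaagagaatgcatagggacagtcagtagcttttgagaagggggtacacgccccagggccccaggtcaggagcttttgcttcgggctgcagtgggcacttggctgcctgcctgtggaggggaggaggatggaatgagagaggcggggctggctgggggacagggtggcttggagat
The Acta1 run held a CArG box from 73 bases before the start and CAGCTG from 221 bases before it. Myh4 held a MEF2 box from 182, a CArG box from 104 and CAGCTG from 67 bases before the start, and 1 of its 3 TATAAA matches overlaps the MEF2 box. Ttn held a MEF2 box from 166 bases before the start, Ckm held CAGCTG alone of these motifs, and no match was found in Eno3. CAGCTG was present in 15 of the 34 distinct promoters of the members (44.1%) and in 13.1% of 32536 distinct promoters of the same length. The 32536 were not filtered by chromosome. Windows of 1 gene can overlap, as in Tnni1 and Mb, so the same match can count more than once. The MEF2 box was present in 5 of 34 (14.7%, against 2.89%), the CArG box in 3 (8.82%, against 1.48%) and TATAAA in 7 (20.6%, against 12.3%). A match describes letters in this window and is not a measured binding site.

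Muscle RNA varied over orders of magnitude between tumours, and it did so within both groups. The 36 genes together took 0.0098% of all reads in KO3 and 0.011% in WT3, 0.037% in KO1, between 0.081% and 0.204% in KO2, KO4, KO5 and WT4, 0.304% in WT1, 0.48% in WT5 and 1.74% in WT2. WT2 held the highest value of 35 of the 36 genes, and the exception was Myog. WT1 and WT5 came next, each with the second highest value for 18 and 17 genes. At the other end, 10 of the 36 genes had no read in KO3 and 13 had none in WT3. The median member stood at 13.4% of its WT2 level in WT1, 12.1% in WT5, 8.97% in KO2, 0.597% in KO1, 0.141% in KO3 and 0.0899% in WT3.

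**Figure D1:**
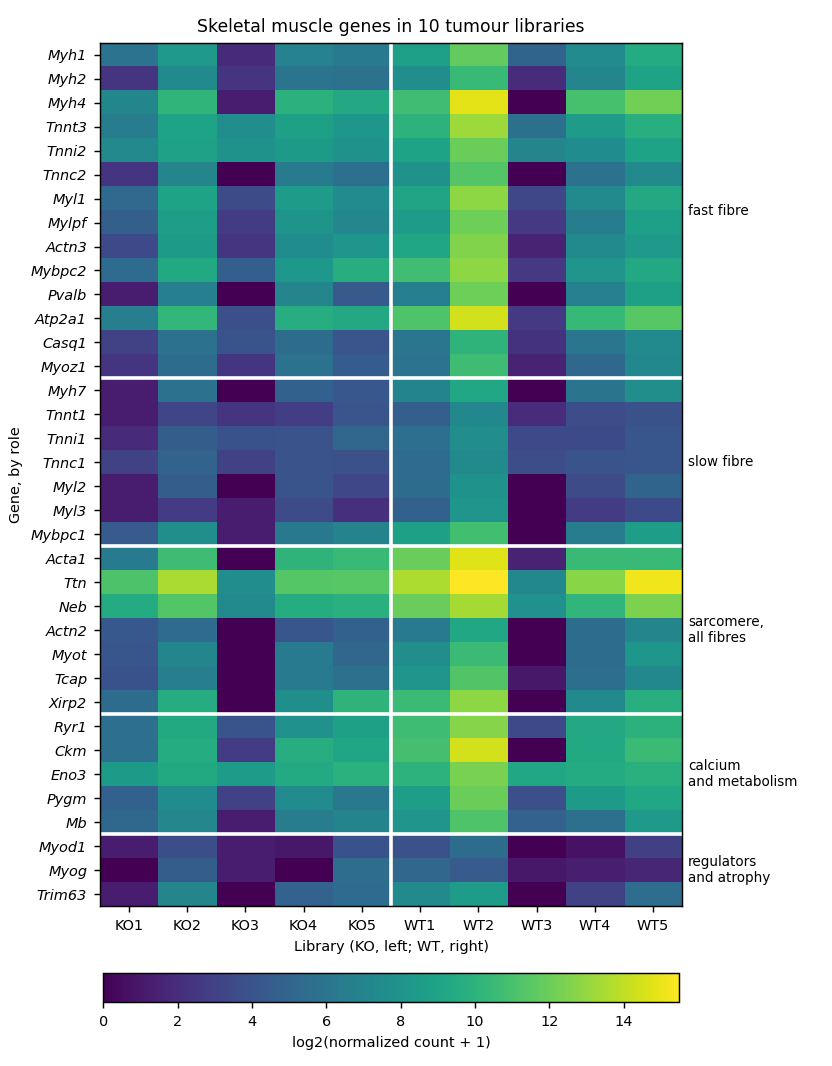
Levels of the 36 skeletal muscle genes (rows, grouped by role) in the 5 KO and 5 WT libraries (columns), as log2(normalized count + 1). WT2 is brightest for nearly every gene, and KO3 and WT3 are dark except for rows such as Ttn, Neb, Tnni2, Tnnt3 and Eno3.

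Acta1, the actin of the skeletal thin filament, was one of the members with the widest range. It was at 83.9, 1620, 0, 1073 and 1395 normalized counts in KO1 to KO5 and at 3885, 27352, 1.94, 1452 and 1419 in WT1 to WT5. The groups overlapped, with the lowest values in KO3 and WT3 and the highest in WT2, which was at least 6484-fold higher than KO3 (KO3 set to the floor of 3 reads). Per kilobase of exon it was the most abundant member in 7 of the 10 libraries.

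The summed normalized count of the 14 fast fibre genes exceeded that of the 7 slow fibre genes in all 10 libraries. This sets 14 genes against 7 with no length division, and in KO1, KO3 and WT3 the slow reads were too few for a ratio. In KO3 the sums were 529 and 28.1, with Tnni2 at 250 and Tnnt3 at 193. In WT3 they were 246 and 24.3, with Tnni2 at 130 and Tnnt3 at 51.5. Myh4, the heavy chain of the fastest (type 2B) fibres, was at 136, 1110, 1.41, 995 and 658 normalized counts in KO1 to KO5 and at 1702, 29602, 0, 1998 and 4678 in WT1 to WT5. Myh1, the heavy chain of type 2X fibres, was at 57.3, 321, 2.81, 118 and 87.3 in KO1 to KO5 and at 426, 3486, 30.1, 173 and 722 in WT1 to WT5. Myh2, the heavy chain of type 2A fibres, ran from 4.19 in KO1 to 165.1 in KO2 among KO libraries and from 2.91 in WT3 to 1403 in WT2 among WT libraries. For each of the 3 the KO and WT ranges overlapped. These genes lie side by side on chromosome 11, Myh2 from 67171027 to 67197517, Myh1 from 67200052 to 67224575 and Myh4 from 67238029 to 67260446 (GRCm38), and reads from their near-identical stretches could have been split between them by the counting.

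Where there were reads enough to measure it, Myh4 held the largest share of the adult myosins in each library, and the shares differed between libraries. In the 8 libraries with at least 100 reads over the 4 genes, Myh4 held 69.8%, 69.7%, 84.5% and 82.3% of the summed per-kilobase level in KO1, KO2, KO4 and KO5, and 72.3%, 85.8%, 86.3% and 78.9% in WT1, WT2, WT4 and WT5. KO libraries averaged 76.6% ± 7.93 and WT libraries 80.8% ± 6.60 (SD, n = 4 each), a gap smaller than the spread within either group. Myh1 was next with 7.08% to 27.9%, then Myh2 with 1.82% to 8.74%. Myh7, the heavy chain of slow fibres, held 0.502% to 3.72%. The share in KO1 rests on 142 reads: 97 were of Myh4, or 68.3% of reads (Wilson 95% interval 60.3% to 75.4%), against 84.4% in WT2 (84.0% to 84.7%, 38523 reads). These intervals cover counting error only. KO3 and WT3, with 6 and 34 reads over the 4 genes, gave no share. All 6 reads of KO3 and all 34 of WT3 fell on Myh1, Myh2 and Myh4, and 31 of those in WT3 on Myh1.

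**Figure D2:**
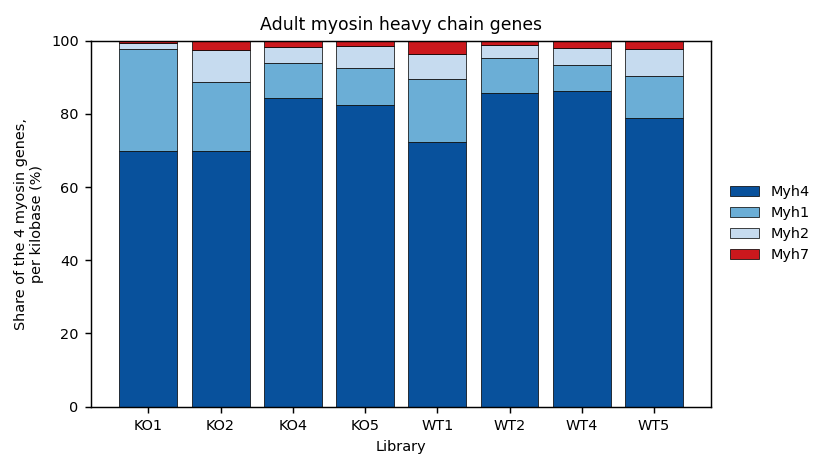
Share (%) of each adult myosin heavy chain gene in the summed per-kilobase level of the 4 genes, by library, for the 8 libraries with at least 100 reads. Myh4 holds 69.7% to 86.3% of every bar and the slow gene Myh7 at most 3.72%.

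The partners of fast myosin were also highest in WT2 and low in KO1, KO3 and WT3, while the libraries between differed in order from gene to gene. WT4 was above KO2, KO4 and KO5 for Myh4 but below them for Mylpf, Myl1 and Actn3. Mylpf and Myl1, the regulatory and essential light chains of fast fibres, ran from 5.62 (KO3) to 386 (KO2) and from 11.2 (KO3) to 494 (KO2) normalized counts in KO, and from 4.85 (WT3) to 4296 (WT2) and from 8.74 (WT3) to 7459 (WT2) in WT. Tnnc2, the fast troponin C that binds calcium, was at 0 in KO3 and WT3, at 4.19 in KO1 and at 2565 in WT2. Its last exons share 592 bases with Ube2c on the opposite strand, and Ube2c stood between 294 and 1502 in all 10 libraries. Actn3, the fast-fibre alpha-actinin of the Z-disc, had 9.79, 344, 4.22, 181 and 279 in KO1 to KO5 and 571, 6064, 1.94, 172.3 and 322 in WT1 to WT5. Myoz1, a Z-disc protein that binds calcineurin, ran from 1.94 in WT3 to 1624 in WT2. For Mybpc2, fast myosin-binding protein C, KO5, at 813, exceeded KO2 (670), KO4 (310), WT4 (274) and WT5 (654).

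Calcium-handling genes of fast fibres varied as widely. Atp2a1, the calcium pump SERCA1, was at 97.9, 1215, 12.7, 810 and 638 normalized counts in KO1 to KO5 and at 2336, 22277, 4.85, 1299 and 2767 in WT1 to WT5. Pvalb, the calcium buffer parvalbumin of the fastest fibres, was at 1.40, 100.3, 0, 133 and 20.1 in KO1 to KO5 and at 100.6, 4302, 0, 107 and 445 in WT1 to WT5. The groups overlapped for both genes, with KO1, KO3 and WT3 lowest and WT2 highest. Casq1, the calcium store protein calsequestrin, ran from 3.88 in WT3 to 1066 in WT2. Ryr1, the release channel, was at 48.9, 670, 15.5, 224 and 450 in KO1 to KO5 and at 1646, 6529, 9.71, 641 and 979 in WT1 to WT5. The KO and WT ranges of these channel and store genes overlapped too.

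Slow fibre genes were present at low level in the same libraries. Myh7 was at 1.40, 56.3, 0, 27.6 and 17.5 normalized counts in KO1 to KO5 and at 125, 593, 0, 61.5 and 200.5 in WT1 to WT5. Myl2 and Myl3, the slow and ventricular light chains, peaked at 233 and 267 in WT2 and at 22.5 (KO2) and 11.2 (KO4) in KO. Tnnt1, Tnni1 and Tnnc1, the slow troponins T, I and C, reached 146, 191 and 163.9 in WT2 and at most 15.7, 33.2 and 30.01 in KO. Tnni1 and Tnnc1 were at 14.1 and 7.03 in KO3 (10 and 5 reads) and at 9.71 and 11.7 in WT3 (10 and 12 reads). Mybpc1, slow myosin-binding protein C, was the most abundant slow gene per kilobase by its median, at 21.0, 199, 1.41, 74.6 and 120 in KO1 to KO5 and at 440, 1787, 0, 88.3 and 405 in WT1 to WT5.

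Summed per kilobase, the 14 fast genes exceeded the 7 slow genes in each of the 7 libraries that had at least 30 reads on both sides. The ratio was 23.6 in KO2, 33.5 in KO4, 20.5 in KO5, 17.6 in WT1, 41.6 in WT2, 28.9 in WT4 and 27.7 in WT5, with a log2 mean of 4.66 ± 0.37 in KO (SD, n = 3) and 4.79 ± 0.51 in WT (SD, n = 4). The KO values lay inside the WT range. Within gene pairs the fast form also led: Tnnc2 stood 5.65, 7.27 and 20.4 times above Tnnc1 per kilobase in KO2, WT1 and WT2. Mybpc2 stood 4.22, 5.20 and 8.52 times above Mybpc1 in KO2, KO4 and KO5 and 4.90, 5.11, 3.88 and 2.02 times above it in WT1, WT2, WT4 and WT5. WT5 thus had the lowest ratio of this pair and KO5 the highest.

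Among genes shared by all fibres, the giant proteins and the small ones did not keep pace. Ttn, the molecular spring that spans the sarcomere from Z-disc to M-band, was at 2293, 11734, 190, 2681 and 2848 normalized counts in KO1 to KO5 and at 12036, 45742, 149, 6804 and 36349 in WT1 to WT5. WT5 thus held 79.5% of the Ttn level of WT2 but 5.19% of its Acta1 and 6.65% of its Ckm. Neb, the thin filament ruler nebulin, was at 723, 2550, 168.7, 775 and 918 in KO1 to KO5 and at 3993, 10988, 223, 1190 and 5546 in WT1 to WT5, or 50.5% of WT2 in WT5. The per-kilobase log2 ratio of Ttn to Acta1 was -1.48 in KO1 and -1.57 in WT5, against -3.39, -4.93 and -5.22 in KO2, KO4 and KO5 and -4.62, -5.51 and -4.02 in WT1, WT2 and WT4.

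The levels of the members were also set against their exon length, in libraries that do not include KO1. Over 32 members with at least 10 reads in each of 7 libraries, the level left after removing gene and library means had a Spearman correlation with exon length of -0.79 in KO4 and -0.52 in WT2, and of 0.40 in WT5, 0.33 in WT4, 0.21 in WT1, 0.14 in KO2 and 0.0026 in KO5. Its correlation with GC content lay between -0.45 (KO2) and 0.25 (WT4). These values describe genes that share libraries, and what part length has in the levels was not tested.

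The remaining sarcomere genes had few or no reads in KO3 and WT3. Actn2, the alpha-actinin of all fibres, Myot, the Z-disc protein myotilin, and Xirp2, a protein of actin-binding repeats, had no read in KO3 or WT3. Tcap, which ties titin to the Z-disc, had no read in KO3 and 1 in WT3, and it reached 2478 normalized counts in WT2. Xirp2 was at 43.3, 771, 0, 206 and 1062 in KO1 to KO5 and at 1508, 7305, 0, 171.6 and 835 in WT1 to WT5. KO5 exceeded WT4 and WT5 for Xirp2, while for Actn2 it was below both (27.1 against 42.7 and 130).

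Among metabolic genes, Eno3 varied least between libraries. Ckm, the muscle creatine kinase that buffers ATP, was at 48.9, 782, 5.62, 812 and 577 normalized counts in KO1 to KO5 and at 1933, 22248, 0, 686 and 1480 in WT1 to WT5. Pygm, which breaks down glycogen, ran from 7.03 (KO3) to 187 (KO2) in KO and from 12.6 (WT3) to 4146 (WT2) in WT. Mb, the oxygen store myoglobin, ran from 1.41 (KO3) to 141 (KO2) in KO and from 28.2 (WT3) to 2372 (WT2) in WT. Eno3, the muscle form of the glycolytic enzyme enolase, was at 351, 670, 368, 714 and 963 in KO1 to KO5 and at 1014, 5250, 587, 725 and 911 in WT1 to WT5. Its highest value was 15.0-fold above its lowest, the narrowest range of any member with reads in all libraries.

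Per kilobase, Eno3 and the fast troponin genes Tnni2 and Tnnt3 led the list where most fibre genes had few or no reads. In KO3 and again in WT3 the order per kilobase was Eno3, Tnni2, Tnnt3. Tnni2, fast troponin I, was at 154, 464, 250, 338 and 240 normalized counts in KO1 to KO5 and at 500.3, 4176, 130, 186 and 502 in WT1 to WT5. Tnnt3, fast troponin T, was at 95.1, 497, 193, 453 and 292 in KO1 to KO5 and at 1027, 9312, 51.5, 382 and 846 in WT1 to WT5. Their partner Tnnc2 had no read in either KO3 or WT3, so the 3 subunits of fast troponin were not read together there. Tnni2 (142441808 to 142444410) and Tnnt3 (142498836 to 142516009) lie 54425 bases apart on the plus strand of chromosome 7 in GRCm38. Between them lies Lsp1, a leukocyte actin-binding gene at 806 to 1843 normalized counts in the 10 libraries, and next to Tnni2 lies Syt8 at 455 to 1223. Prr33, on the minus strand (142491074 to 142506771), overlaps the span of Tnnt3 without shared exonic bases, at 78.2 to 377 normalized counts. In KO3 and WT3, Lsp1 was at 1834 and 806, Syt8 at 1223 and 686 and Prr33 at 377 and 91.3. Whether they bear on the Tnni2 and Tnnt3 reads was not tested.

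**Figure D3:**
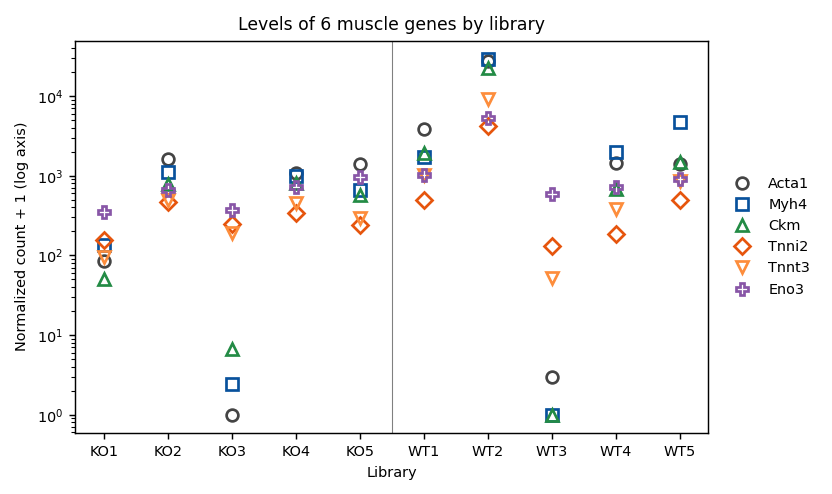
Normalized counts plus 1 (log axis) of 6 muscle genes in each library, 1 symbol per gene. In KO3 and WT3, Acta1, Myh4 and Ckm are at or near the bottom of the axis, while Eno3 (368 and 587), Tnni2 (250 and 130) and Tnnt3 (193 and 51.5) stay well above them.

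Among the regulators, Myog was the member whose profile lay farthest from the mean of the list. Myog, which encodes myogenin, the factor of myoblast differentiation, was at 0, 22.5, 1.41, 0 and 46.3 normalized counts in KO1 to KO5 and at 34.1, 20.9, 0.97, 1.45 and 2.22 in WT1 to WT5. It was high in KO2, KO5, WT1 and WT2 and near 0 in KO4, WT4 and WT5, which held 995, 1998 and 4678 normalized counts of Myh4. Myod1, the determination factor of myoblasts, had the same 4 libraries on top, at 12.2, 14.0, 13.3 and 43.7, with at most 6.65 elsewhere. Its mean was under the minimum of 10 and it was not tested. Trim63, the ubiquitin ligase MuRF1 of muscle wasting, was highest in WT2 (372), WT1 (162.1), KO2 (133) and WT5 (45.4). Myl4, a light chain of embryonic muscle and atrium and no member of the list, was at 96.6, 96.9 and 89.8 in KO2, KO5 and WT1 and at most 27.6 in the other 7. The summed adipocyte markers were lowest in KO2 (488), WT3 (595) and KO5 (635), and their part in these values was not tested.

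No skeletal muscle gene passed the test between KO and WT tumours. The test was limma on log2(normalized count + 1), fitted over 17975 genes with a mean of at least 10, with Benjamini-Hochberg adjusted p under 0.05; 35 members entered it and 0 were called, where 0.00556% of all tested genes were. At an unadjusted p under 0.05 limma also had 0 members lower and 0 higher, against 3.67% and 2.82% of all tested genes. All 35 fitted differences were below 0 (51% of all tested genes were), and their median was -1.80, against -0.0073 over all tested genes. The members shared their libraries and moved together, so these are not 35 separate observations. For 0 of 36 members did the KO and WT libraries fail to overlap, against 0.734% of tested genes in the lower direction and 0.684% in the higher.

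Single differences were wide. Pvalb had the lowest fitted value, -2.98 ± 1.92 (SE), where KO libraries averaged 50.9 ± 61.5 normalized counts and WT libraries 991 ± 1859 (SD, n = 5 each, limma adjusted p = 0.874). Myh1 was at -2.59 ± 1.23 and Pygm at -2.63 ± 1.25 (limma adjusted p = 0.779 for both). The 95% interval of Acta1 ran from -7.43 to 2.79 and that of Eno3, the narrowest, from -2.13 to 0.082. By role the medians were -1.95 for 14 fast genes, -1.62 for 7 slow genes, -1.82 for 7 sarcomere genes, -2.07 for 5 calcium and metabolic genes and -0.80 for the 2 tested regulators. The difference between fast and slow medians was not tested.

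**Figure D4:**
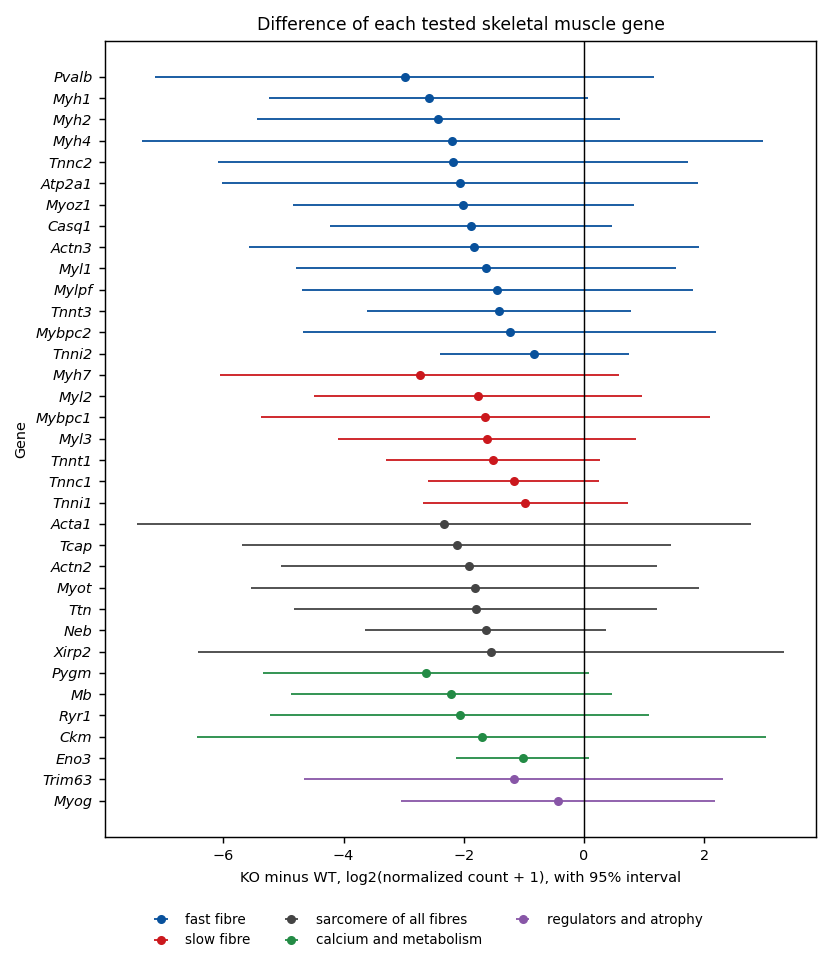
KO minus WT difference of each of the 35 tested members on the log2(normalized count + 1) scale (points), with the 95% interval of the limma fit (bars), coloured by role. Every point lies below 0 and every interval includes 0.

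Single libraries decided the size of the group difference. Averaged over the members, the log2 level of KO libraries was 5.65 ± 2.07 and that of WT libraries 7.43 ± 3.22 (SD, n = 5 each). WT3, at 2.42, lay below every KO library. Leaving out KO3 gave a median difference of -0.98, leaving out WT2 gave -0.89 and leaving out WT3 gave -3.17. Without WT3 limma called 0 of 36 members and 0 of all 17797 tested genes. At an unadjusted p under 0.05, 30 members were lower (4.49% of tested genes). With the RESUB prefix as a term the median was -1.72. Within the prefixed libraries (1 KO, 4 WT) it was -0.53 with 25 of 36 members lower, and within the others (4 KO, 1 WT) it was -3.25 with 32 of 32 lower. edgeR and DESeq2, run on whole reads recovered from the table, called 0 members each (0.00556% and, in the lower direction, 0.525% of tested genes). Both fitted 34 of 35 lower, the exception being Myog. At an unadjusted p under 0.05 they had 27 and 24 members lower, against 4.71% and 4.97% of tested genes. DESeq2 gave no adjusted p for Myoz1 and Eno3. Without KO3 and WT3 the median was -2.34, with 23 of 36 lower at an unadjusted p under 0.05 (3.53% of tested genes), and with the replicate number as a block it was -1.80, with 23 of 35 lower (4.23% of tested genes).

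Genes of muscle outside the list were mostly fitted lower in KO as well, and none passed limma. Of 80 tested genes outside the members, 78 had lower fitted values, the median was -1.34 and limma called 0, with 14 lower at an unadjusted p under 0.05 (over all tested genes, 51% were fitted lower and 3.67% were lower at that p). Of 14 excitation-contraction genes all were lower (median -1.39), among them Hrc, a calcium-binding protein of the reticulum, at -2.62, the junctional membrane gene Jph2 at -1.42, the channel adaptor Stac3 at -1.36 and Srl, which encodes sarcalumenin, at -1.31. Of 26 other sarcomere and Z-disc genes 25 were lower (median -1.62), among them Mylk4 at -3.16, Cmya5 at -2.32, the M-band gene Myom3 at -2.17 and the Z-disc gene Ldb3 at -1.98. DESeq2 called 2 of them lower, Mylk4 (adjusted p = 0.028) and Cmya5 (adjusted p = 0.0477), where it called 0.525% of tested genes lower. All 19 metabolic genes were lower (median -1.49), among them the mitochondrial creatine kinase Ckmt2 at -2.93, Pgam2 at -1.63, the insulin-responsive glucose transporter Slc2a4 at -1.57 and Pfkm at -0.93. The 14 junction and membrane genes had a median of -0.55, with Dmd, which encodes dystrophin, at -0.95, the sodium channel gene Scn4a at -2.19 and the acetylcholine receptor gene Chrnb1 at -0.45. The 8 satellite cell and myogenic genes had a median of -0.61, with the ubiquitin ligase Fbxo32 at -0.58, Vgll2 at -2.27, Des at -1.89 and Cdh15 at -0.64.

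Markers of neighbouring tissues showed which of them moved with muscle. The summed level of 7 smooth muscle markers stayed between 1964 and 2281 normalized counts in KO and between 1587 and 3870 in WT, a 2.44-fold range over 10 libraries against 427-fold for the fast list and 139-fold for the slow list. Among 9 cardiac markers, 6 (Myh6, Tnni3, Mybpc3, Myl7, Nppa and Ryr2) were not analysed here, and Tnnt2 stood between 855 and 2149. The fitted KO minus WT difference was -0.12 for Tnnt2, 1.24 for Myl4 and 1.30 for Nppb, and limma called 0 of these 3. The 6 adipocyte markers ran from 488 to 4898 in KO and from 595 to 8724 in WT, highest in WT2 as muscle was, but second in KO4. The 7 keratinocyte markers ran from 31.4 to 120 in KO and from 75.6 to 6666 in WT, where WT3, the library with the lowest mean log2 level of the muscle genes, had the most. Without WT2, WT3 and WT5, only WT1 and WT4 remained as WT libraries. In that setting the median of the muscle genes was -2.07 with 34 of 34 lower, against a median of -0.026 over all tested genes. Limma called 0 of 17642 genes there, so the lack of a called member says little. The 6 Schwann cell markers ran from 534 to 718 in KO and from 693 to 1013 in WT, and the 5 carcinoma markers from 12056 to 17040 in KO and from 16574 to 29304 in WT. Some single markers varied more than these sums: Actg2 of smooth muscle ran from 22.2 (WT5) to 216 (WT1) and Cldn4 of carcinoma from 464 (KO2) to 5056 (WT4). Limma fitted all 5 carcinoma markers lower in KO (median -0.82, 51% of all tested genes were lower) and called 0. At an unadjusted p under 0.05 limma had 3 of them lower (3.67% of all tested genes). The part of these tissues in the muscle differences was not tested.

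**Figure D5:**
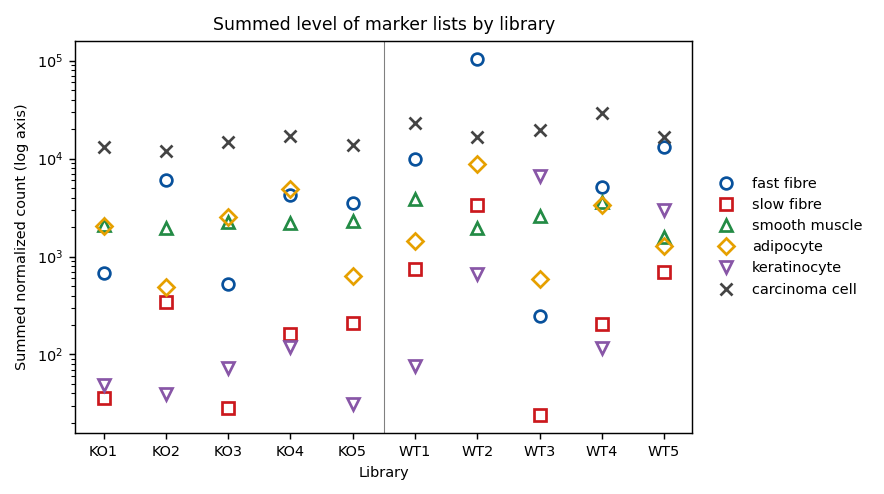
Summed normalized counts (log axis) of the fast and slow fibre lists and of 4 marker lists in each library. The fast and slow sums range 427-fold and 139-fold over the 10 libraries, while the smooth muscle and carcinoma marker sums stay within 2.44-fold and 2.43-fold.

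Of the 36 members 16 share exonic bases with another annotated gene, all on the opposite strand, and no source gives the strand used in counting, so reads of either gene could sit in the other. For 5 the partner codes for protein: Atp2a1 shares 763 bases with Rabep2, Tnnc2 592 with Ube2c, Myl3 95 with Pth1r, Mb 64 with Apol6 and Myl2 60 with Ccdc63. Rabep2 stood between 77.5 and 159 normalized counts in all libraries, above Atp2a1 in KO3 and WT3, and Apol6 stood between 125 and 754, above Mb in those libraries. Tnnc2 had no read in KO3 or WT3, and Ube2c stood at 294 or more in every library. How many reads of a partner sit in a member was not tested.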

How the data were processed

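Total RNA was freed of DNA and ribosomal RNA and made into libraries with random primers that carry molecular identifiers, per the labels' protocols. The table deposited by the authors holds a gene-level signal, normalized read counts. Dividing each value by what 1 read is worth in its library gave whole reads for 100% of values, to within 0.0001. The submitters' processing notes name bcl2fastq 2.17 and, as a separate entry, genome build GRCm38. The aligner, counter, use of strand and use of the identifiers are not given in the sources used here.

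Symbols came from GENCODE M21 (17953 of 18047 IDs). The KO and WT groups were set against each other with limma 3.58.1 in R 4.3.3, its prior variance following mean level, on log2(normalized count + 1) for genes averaging at least 10. On that scale low genes show smaller fold changes than they have. The alternatives on recovered whole reads used edgeR 4.0.16 and DESeq2 1.42.0. Per-kilobase levels used the union of annotated exons. Myosin shares needed 100 reads and ratios 30 reads a side. For fold bounds alone, a lowest level of 0 was set to a floor of 3 counts per library. The limma step was tested on simulated data. Figures used matplotlib 3.10.9 in Python 3.11.15.

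The members, lists and rules were chosen with earlier results of these data known. The genes named are all members in the table, up to 4 genes with the smallest p of each other muscle list, the markers listed, and the 10 other genes with the profile closest to the members. Krt1, Myl4, Tnnt2, Actg2, Cldn4, Lsp1, Syt8, Prr33 and the pairs set side by side were chosen after their values were seen. The print of Myh4 was also chosen that way. The level of the targeted gene and that of 1 gene the rule names are not reported here. Printed promoters were the 2 most abundant of the sarcomere and of the calcium and metabolism lists with an entry. Alternatives changed the pseudocount, filter, scaling, test, covariates, lengths and libraries used.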

Additional observations from a re-analysis of the deposited data

Results flagged for a closer look

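Within a group of 5 libraries, a value was marked when its gap to the next library exceeded 0.71 of the range of the group on the log2(normalized count + 1) scale, and 3 of the 72 group and gene pairs were marked. Chance marks about 1 group in 20. Myh4 in WT3, at 0 normalized counts, lay below the other WT libraries by 0.72 of their range. Actn2 in KO3, at 0, lay below the other KO libraries by 0.76 of their range. Eno3 in WT2, at 5250 normalized counts, lay above the other WT libraries by 0.75 of their range. On the linear scale 30 values were marked, 29 of them in WT2.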

How the results depend on the processing

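None of the members was past the threshold in limma, edgeR or DESeq2 under any of the 26 alternatives. The lowest adjusted p of a member was 0.132 (limma with the replicate block). Few genes of any kind were called by limma, 1 of 17975 in the main fit. It called 0 of 17797 without WT3 and 0 of 17709 without KO3 and WT3. DESeq2 called 0.525% of tested genes lower and 0.145% higher. Where almost no gene was called, a count of 0 members says little about muscle genes. Of 896 values of single members 878 kept their sign and 18 turned. Within the RESUB libraries, where KO5 is the lone KO library and is assumed to vary like the WT libraries, these were Myh4 (0.23), Actn3 (0.45), Mybpc2 (1.11), Tnni1 (0.056), Mybpc1 (0.40), Acta1 (0.77), Xirp2 (2.35), Ckm (0.48), Myog (2.60) and Trim63 (0.66). Myog also turned in edgeR (0.29), in DESeq2 (0.24) and with the RESUB prefix as a term (1.18). With 1 library left out Xirp2 ran from -3.57 to 0.097, positive without KO3, and Myog from -1.001 to 0.17, positive without KO1, KO4, WT1 or WT2. The median over the members ran from -3.17 to -0.89 with 1 library left out, and was -1.38 with WT2 and WT5 averaged. Without KO3 and WT3, chosen after the data were seen, it was -2.34 with 23 of 36 lower at an unadjusted p under 0.05 (3.53% of tested genes), and without WT2 as well -1.46. The median log2 ratio of fast to slow genes was 4.79 per kilobase and 4.23 with no length division, which by construction weights long genes more. With the replicate block the differences and the median of -1.80 stayed, 0 members were called and 23 were lower at an unadjusted p under 0.05 (4.23% of tested genes). The numbers do not pair the libraries by the labels, and same-numbered libraries had correlations of their deviations of 0.017, 0.099, 0.52, 0.026 and -0.23, with number 3 alone closest to its own number on both sides. Members at 0 to 3 reads, 21 of 36 in KO3 and 20 in WT3, limit what the depth can show there.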

Other observations

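Among 17826 tested genes outside the lists, the 10 whose centred log2 profile over the 10 libraries lay closest to the mean profile of the members were 3425401B19Rik, Mypn, Trim54, Kcnj11, Scn4b, Alpk3, Fitm1, Ano5, Cap2 and Cacng6. Their root mean square distance ran from 0.40 (3425401B19Rik) to 0.75 (Cacng6) log2 units, against a median of 0.95 for the members themselves and 2.61 for the other genes. Mypn encodes myopalladin of the Z-disc, Trim54 a relative of MuRF1, Kcnj11 a subunit of the ATP-sensitive potassium channel and Scn4b a sodium channel subunit. 3425401B19Rik was at 2.80, 32.8, 0, 10.2 and 27.9 normalized counts in KO1 to KO5 and at 54.9, 472, 0, 23.2 and 90.8 in WT1 to WT5. Mypn was at 5.59, 53.5, 0, 10.2 and 27.1 in KO1 to KO5 and at 90.6, 390, 0.97, 34.0 and 56.5 in WT1 to WT5. Both were at or near 0 in KO3 and WT3 and highest in WT2, as most members were. The 10 genes were picked for the smallest distances, so this likeness and those distances follow from the choice. Of the members, Myl2 (0.32) and Myl1 (0.38) lay closest to the mean profile, and Myog (2.173), Myh4 (2.10) and Acta1 (2.06) lay farthest from it.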
